A study of Mus musculus with 4 samples.

Results

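The RNAs described here are the short box C/D small nucleolar RNAs (snoRNAs) of a LARP7 RNA immunoprecipitation experiment. They are the gene models whose symbol starts with Snord and whose length is at most 80 nt, without Snord64, Snord107, Snord115 and Snord116. The rule took 42 of 50600 gene models and 42 of the 99 Snord models. Another 38 Snord models were longer than 80 nt, and 19 were left out by symbol. The rule uses name and length and no measured count, though it was set with earlier results of these data known.

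RNA was recovered from whole testes of 8-week-old C57BL/6 mice, with no transgene or treatment named in the labels. The LARP7 RIP group held 2 libraries made with an antibody to LARP7, and the IgG RIP group held 2 libraries made with non-specific IgG, which measures RNA that stays on the beads without the antibody. The series text calls the replicates biological, and which animals or pools of animals they came from was not stated. The small RNA libraries were selected for RNAs of 15 to 300 nt, a range that holds the length of every member.

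Box C/D snoRNAs are short guide RNAs named for 2 conserved sequence elements, the C and D boxes. They pair with ribosomal RNA or snRNA, and the methyltransferase fibrillarin, held on the RNA with Nop56, Nop58 and Snu13, then methylates the ribose of a base in the paired stretch. Most are cut from introns of host genes, many of which encode ribosomal or translation proteins or are non-coding. LARP7, a La-related protein, is known for binding 7SK RNA and for joining U6 snRNA and box C/D guides during the methylation of U6.

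The libraries held 6918040 and 6502682 expected counts with LARP7, against 6994514 and 4411271 with IgG. The counts of replicates differed by more than sampling noise (chi-square per degree of freedom of 123.5 for the LARP7 pair and 53.41 for the IgG pair), so each library was counted as a sample. The 9 germ cell markers listed for testis were above 0 in all 4 libraries, as were the 3 Sertoli and 3 Leydig cell markers. Of the 3 blood markers listed, 1 was. Germ cell markers summed to 403 and 299 CPM (counts scaled to a common library size, here the library total) with LARP7, against 2994 and 2278 CPM with IgG. Sertoli cell markers summed to 4.35 and 4.01 CPM with LARP7, against 33.6 and 28.1 with IgG. Leydig cell markers summed to 18.9 and 22.3 CPM with LARP7, against 64.9 and 57.1 with IgG. By library totals the median log2 fold change of all models tested, LARP7 over IgG, was -1.47. The part of these markers in the results below was not tested.

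The short box C/D snoRNAs made up a large and uneven part of each library. Their summed share of all expected counts was 25.9% and 15.99% in the LARP7 libraries, against 7.36% and 9.68% in the IgG libraries. Both LARP7 libraries lay above both IgG libraries, with means of 20.9% ± 6.99 with LARP7 and 8.52% ± 1.64 with IgG (SD, n = 2 each). The Wilson 95% intervals of these shares were at most 0.0653 percentage points wide, so the distance between replicates is far larger than counting error, which is all the intervals cover. With 2 libraries against 2, an exact two-sided permutation test cannot give a p below 0.333. The groups differ in the antibody used on whole testis, so these shares compare recovered RNA. Copies of an RNA per cell and cells that hold it cannot be told apart in them.

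A large part of that share belonged to Snord2 and Snord49a, both guides of 28S rRNA methylation in human. Snord2 held 12.58% and 4.002% of all counts with LARP7, against 2.638% and 2.219% with IgG. Snord49a held 7.023% and 6.104% of all counts with LARP7, against 1.686% and 2.481% with IgG. The LARP7 replicates stood wide apart for Snord2 and close together for Snord49a, and neither overlapped the IgG libraries. Of the members' counts, Snord2 and Snord49a together held 75.8% and 63.2% with LARP7, against 58.7% and 48.5% with IgG. Without them the other 40 members held 6.27% and 5.88% of all counts with LARP7, against 3.04% and 4.98% with IgG. The groups still did not overlap, but the means came to 6.08% ± 0.277 with LARP7 and 4.01% ± 1.37 with IgG (SD, n = 2 each), nearer than those of the whole set.

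**Figure D1:**
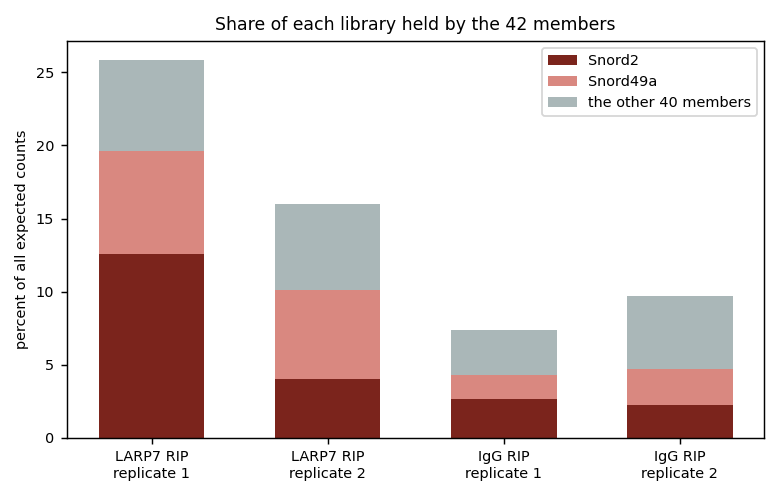
Percent of all expected counts held by the 42 short box C/D snoRNAs in each of the 4 libraries, stacked by Snord2, Snord49a and the other 40 members. The stacks reach 25.9% and 15.99% in the LARP7 libraries, against 7.36% and 9.68% in the IgG libraries, and Snord2 differs most between the LARP7 replicates.

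By the authors' deposited TPM, which divides counts by an effective length and scales every library to the same sum, the members' share was 44.2% ± 4.87 with LARP7 and 36.7% ± 1.75 with IgG (SD, n = 2 each). The effective length counts the positions where a fragment fits, and for RNAs this short it depends on the fragment lengths of the library. Fragments of up to 60 nt made up about 30% and 40% of fragments with LARP7, against 51% and 46% with IgG, as read from effective lengths of neighbouring model lengths. At up to 80 nt the figures were 89% and 85% with LARP7, against 82% and 86% with IgG. The fragment lengths thus differed at the lower end and overlapped at 80 nt, and their part in the recovery of the members was not tested. The longer Snord models held 3.65% ± 0.174 of all counts with LARP7 and 3.10% ± 1.49 with IgG, a difference within the spread of the IgG libraries (SD, n = 2 each).

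All 42 members had counts above 0 in all 4 libraries, and all 42 passed the filter on low counts. All CPM given below are scaled by TMM factors. The members' levels, as this CPM divided by model length, ran over 29454-fold, between 1144 CPM per nt for Snord2 and 0.0388 CPM per nt for Snord45b (means of 4 libraries), with a median of 4.29. In every library 7 members had over 10000 counts, and 15 had under 1000 counts in every library. The rank by TPM lay within 3 places of the rank by CPM per nt for 39 of the 42.

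The most abundant member was Snord2 (ENSMUSG00000088524.1, 69 nt), which lies inside Eif4a2, the gene of an RNA helicase of translation initiation, at chr16:23108953-23109020 (GRCm38.p6, RefSeq). It reached 3277 and 866 CPM per nt with LARP7, against 209 and 224 CPM per nt with IgG. The next was Snord49a (ENSMUSG00000065734.1, 72 nt) at chr11:62603460-62603521, inside the lncRNA gene 2410006H16Rik, with 1753 and 1265 CPM per nt with LARP7, against 128 and 240.5 CPM per nt with IgG. The IgG libraries of both members lay far below the LARP7 libraries, and which of the 2 snoRNAs was higher changed between replicates in each group. Their order is thus within the spread of the libraries.

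Below this pair came a step of about an order of magnitude to a set of 18S rRNA guides. Snord57 had 276 and 147 CPM per nt with LARP7, against 28.4 and 33.7 with IgG, and Snord110 had 206 and 140 with LARP7, against 10.9 and 34.1 with IgG. Both lie inside Nop56, which encodes a core protein of the box C/D particle itself. Snord82, inside the nucleolin gene Ncl, had 182 and 144 CPM per nt with LARP7, against 25.4 and 70.9 with IgG. Within the LARP7 libraries the ranges of Snord57, Snord82 and Snord110 overlapped, so these levels have no settled order.

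The other members among the 12 highest were Snord59a, Snord66, Snord55, Snord45c, Snord50a, Snord80 and Snord50b, with means of 77.5 to 36.0 CPM per nt. Of these, Snord80 was the member whose groups overlapped, at 27.4 and 64.6 CPM per nt with LARP7, against 13.3 and 61.2 with IgG. Snord50a and Snord50b each have counts identical to those of another gene model, Gm24463 and Gm26135, and Snord1c shares its counts with Gm24253. RSEM, the estimator used by the authors, cannot tell such copies apart. The posterior SD of the estimated count reached 0.643 of the count for Snord1c, 0.277 for Snord50b and 0.212 for Snord50a, and was at most 0.05 of the count for 38 members.

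**Figure D2:**
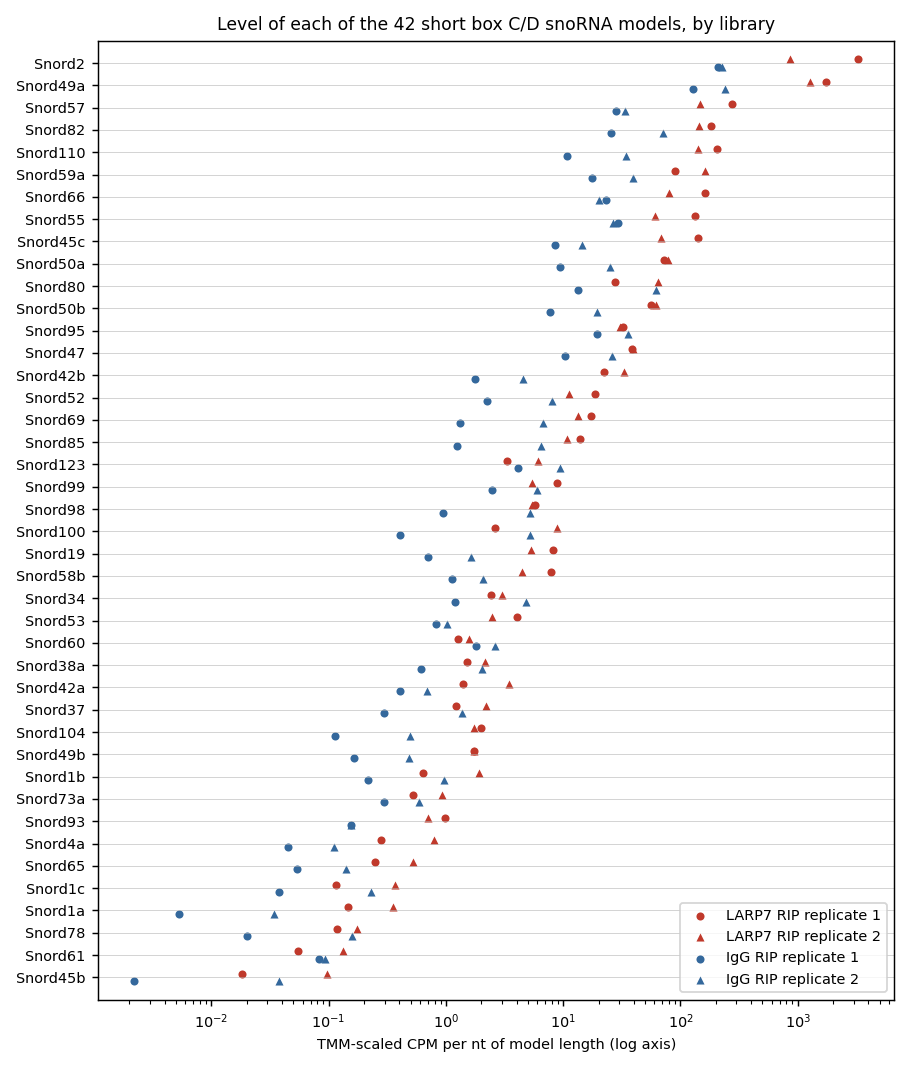
TMM-scaled CPM per nt of model length (log axis) of each of the 42 members, with 1 point per library (red, LARP7 RIP; blue, IgG RIP; circles, replicate 1; triangles, replicate 2). Snord2 and Snord49a stand apart at the top, and IgG replicate 1 lies below IgG replicate 2 for 39 members.

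Relative to the TMM scaling, 17 of the 42 members (40.5%) rose in the LARP7 libraries and 0 fell (edgeR quasi-likelihood test, Benjamini-Hochberg adjusted p under 0.05). Over all 12234 models tested, 14.5% were called higher and 9.69% lower. The members called were Snord1a, Snord2, Snord4a, Snord19, Snord42a, Snord42b, Snord45c, Snord49a, Snord49b, Snord53, Snord57, Snord58b, Snord65, Snord66, Snord93, Snord104 and Snord110. At an unadjusted p under 0.05 there were 22 members higher and 0 lower, where 2563 of the 12234 models were higher and 2224 lower. DESeq2 called 24 members higher and 0 lower, where it called 12.1% of all models higher and 5.32% lower. The 17 were called in 2 libraries against 2. The p-values set the difference between groups against the spread between these libraries, which the test estimates in part from all models.

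The count depends on the scaling. The LARP7 libraries had TMM factors of 0.558 and 0.673, against 1.85 and 1.44 in the IgG libraries, and the scaling sets the median near 0. The median log2 fold change of all models tested was -0.05 by TMM and -1.47 by library totals. By library totals 7 members were called higher, where 3.95% of all models were, and 3 were called lower, where 47.1% of all models were (edgeR, adjusted p under 0.05). The 7 were Snord1a, Snord2, Snord4a, Snord42b, Snord45c, Snord104 and Snord110, all among the 17. The 3 lower by totals were Snord34, Snord60 and Snord123. All 17 had log2 fold changes above 0 by TMM and by totals, but in the log2(TPM + 1) scale 6 of them lay below 0 (Snord42a, Snord53, Snord58b, Snord65, Snord66 and Snord93) and limma called none.

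The fold changes of the 42 were widely spread. By TMM they lay between -0.63 (Snord60) and 3.802 (Snord1a), with quartiles of 0.87 and 2.45, a median of 1.80 and an SD over models of 1.09. There were 39 members above 0 by TMM and 3 below, where 5949 of all 12234 models tested were above and 6285 below. By library totals the range was -2.004 to 2.49 with a median of 0.42, and 26 members lay above 0 and 16 below. Of all models tested 2521 lay above 0 by totals and 9713 below. In log2(TPM + 1) the tally turned, with 11 members above 0 and 31 below and a median of -0.42. All models leaned the same way on this scale. Of 19233 in the limma fit, 159 were higher and 5032 lower at an unadjusted p under 0.05. Of the 42 members 0 were higher and 3 lower at that threshold. The longer Snord models had a median of 1.41 by TMM over 37 tested, with 12 called higher and 0 lower, and 0.13 by totals, with 4 higher and 3 lower. The Snora models, the names of box H/ACA guides, had a median of 1.01 by TMM over 24 tested, with 7 higher and 2 lower, and -0.31 by totals, with 2 higher and 4 lower. These counts stand beside 14.5% of all models called higher and 9.69% lower by TMM, and 3.95% higher and 47.1% lower by totals.

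Both LARP7 libraries lay above both IgG libraries for 27 members by TMM and for 15 by totals. The same held for 32.9% of all models tested by TMM and 9.71% by totals. Both LARP7 libraries lay below both IgG libraries for 1 member by TMM (Snord60) and for 5 by totals (Snord34, Snord60, Snord61, Snord95 and Snord123), where the same held for 35.6% of all models tested by TMM and 63.9% by totals.

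The libraries did not weigh alike. IgG replicate 1 lay below IgG replicate 2 for 39 of the 42 members in TMM-scaled CPM, with a median log2 ratio of -1.35, and LARP7 replicate 1 lay below LARP7 replicate 2 for 23 members, with a median of -0.06. Without LARP7 replicate 1 the members' median log2 fold change by TMM was 1.66, and without LARP7 replicate 2 it was 1.86. Without IgG replicate 1 it was 1.33, and without IgG replicate 2 it was 2.77. The number of members called changed with the library left out, as did the number over all models. Each of these fits leaves a lone library in 1 group, which is assumed to vary like the others. Snord93 was the member called whichever library was left out. Of the 17, Snord19 and Snord93 stayed called without LARP7 replicate 2, and Snord1a, Snord4a, Snord42a, Snord42b, Snord49b, Snord65 and Snord93 without LARP7 replicate 1.

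**Figure D3:**
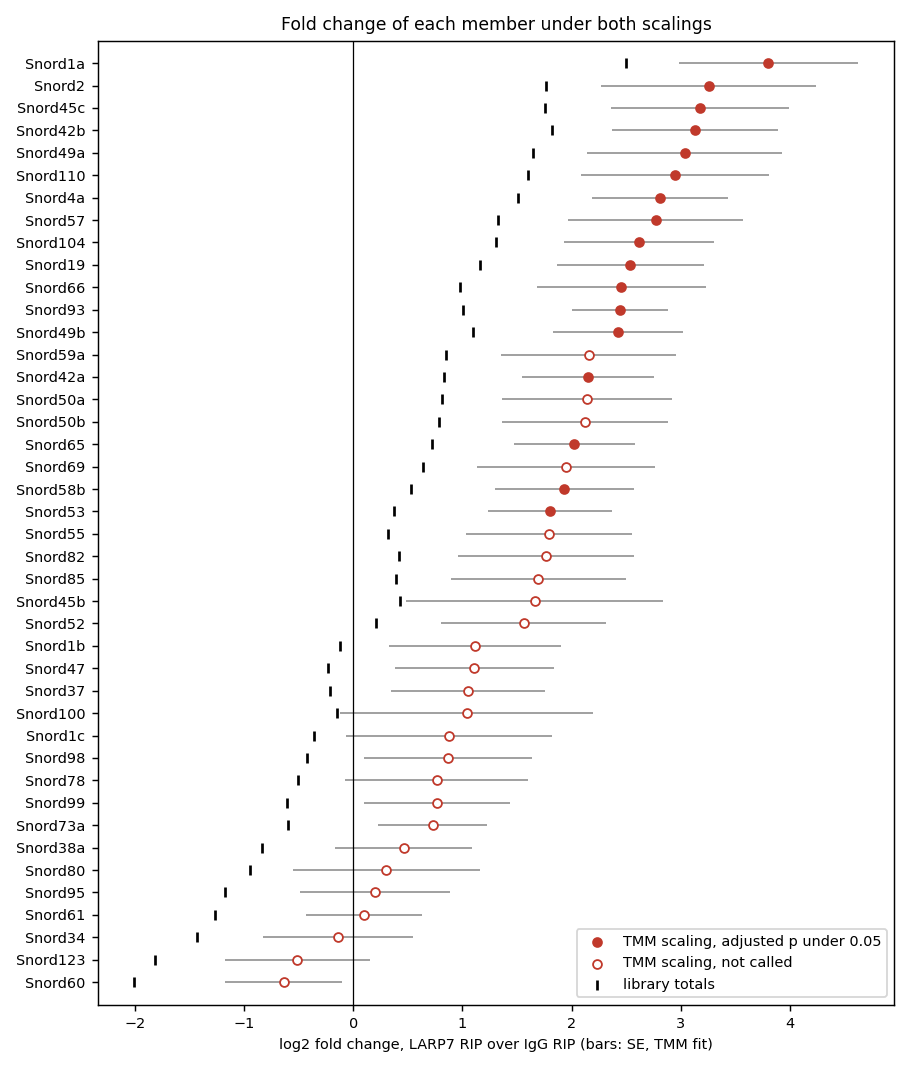
Log2 fold change of each member, LARP7 RIP over IgG RIP, by TMM scaling (points, with SE as bars; filled where the adjusted p was under 0.05) and by library totals (black ticks). The 17 filled points lie above 0 by both scalings, while 39 members lie above 0 by TMM and 26 by totals. Of all 12234 models tested, 5949 lie above 0 by TMM and 2521 by totals.

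Guides of 18S rRNA, by the targets known for the human snoRNAs, were 16 of the members. By TMM 10 rose and 0 fell, and the median log2 fold change was 2.30. By totals 4 were called higher and 0 lower, with a median of 0.91. Without LARP7 replicate 2 the count was 2. No list test was made, and the share called is a description of the list beside the 14.5% of all models called higher by TMM and 3.95% by totals.

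Snord45c (80 nt, inside Rabggtb, which encodes a subunit of a prenyl transferase of Rab proteins) had 11223 and 5444 TMM-scaled CPM with LARP7, against 685 and 1163 CPM with IgG. Both LARP7 libraries were several times above both IgG libraries, with a log2 fold change of 3.17 ± 0.81 by TMM (SE; adjusted p = 0.0215) and 1.76 by totals (adjusted p = 0.0266). By TMM the fold was 2.54 without LARP7 replicate 1, and the call was lost without either LARP7 library. Snord42b (69 nt, inside the ribosomal protein gene Rpl23a) had 1525 and 2268 CPM with LARP7, against 122 and 312 CPM with IgG. The groups lay well apart, and the log2 fold change was 3.13 ± 0.76 by TMM (SE; adjusted p = 0.0182) and 1.82 by totals (adjusted p = 0.0140). By TMM it was 4.01 without IgG replicate 2, and the call was lost without LARP7 replicate 2.

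Of the Nop56 pair, Snord110 had 14019 and 9541 TMM-scaled CPM with LARP7, against 739 and 2319 CPM with IgG. Its log2 fold change was 2.95 ± 0.86 by TMM (SE; adjusted p = 0.0323) and 1.60 by totals (adjusted p = 0.0469). By TMM it ran from 2.35 without IgG replicate 1 to 4.05 without IgG replicate 2. Snord57 had 19859 and 10595 CPM with LARP7, against 2043 and 2426 CPM with IgG. It passed by TMM (2.77 ± 0.80, SE; adjusted p = 0.0311) and not by totals (1.33, adjusted p = 0.104). Both calls by TMM were lost without either LARP7 library. For both the higher IgG library lay far below the lower LARP7 library.

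Snord93 (71 nt), a low member at chr5:23852233-23852277 inside the lncRNA genes Gm42228 and 2700038G22Rik, had the smallest adjusted p of the members by TMM. Its levels were 69.9 and 49.8 TMM-scaled CPM with LARP7, against 11.01 and 10.92 CPM with IgG. The 2 IgG libraries were nearly equal and both lay far below the LARP7 libraries, with a log2 fold change of 2.45 ± 0.44 (SE; edgeR adjusted p = 0.00739). With each library left out in turn the adjusted p ranged from 0.00187 to 0.0198. By totals it was 1.00 with an adjusted p of 0.0832, and in log2(TPM + 1) the difference was -0.01. Snord93 was not among the genes the naming rule took and was picked out after its values were seen.

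Among the 18S guides that did not pass by TMM, Snord82 had a log2 fold change of 1.76 ± 0.81 (SE; edgeR adjusted p = 0.130) and Snord59a 2.16 ± 0.80 (SE; edgeR adjusted p = 0.0707), both with LARP7 libraries above IgG libraries by TMM and overlapping by totals. The lowest of the 18S guides was Snord61, inside the splicing regulator gene Rbmx. It had 3.898 and 9.41 TMM-scaled CPM with LARP7, against 5.86 and 6.64 CPM with IgG, and the groups overlapped by TMM. Its log2 fold change was 0.10 by TMM and -1.26 by totals.

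Guides of 28S rRNA, again by human targets, were 23 of the members. By TMM 7 rose and 0 fell, with a median of 1.56, and by totals 3 were called higher and 2 lower, with a median of 0.21. Over all models 14.5% were called higher by TMM, and 3.95% higher and 47.1% lower by totals. The count of 28S guides called higher by TMM fell without LARP7 replicate 2 and rose without IgG replicate 2, as did that over all models.

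The 28S guides held both ends of the fold changes. Snord1a (74 nt), at chr11:116674597-116674672 inside Snhg16, had 10.9 and 25.9 TMM-scaled CPM with LARP7, against 0.391 and 2.53 CPM with IgG, from 41.5 and 112.83 expected counts with LARP7, against 4.99 and 15.99 with IgG. Every LARP7 value was above every IgG value. Its log2 fold change of 3.802 ± 0.82 by TMM (SE; adjusted p = 0.0185) and 2.49 by totals (adjusted p = 0.000878) was the highest of the members by both scalings, on few IgG counts. By TMM it ran from 2.85 without IgG replicate 1 to 5.55 without IgG replicate 2, and it was 3.01 and not called without LARP7 replicate 2 (edgeR adjusted p = 0.0977).

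Snord2 had 226083 and 59728 TMM-scaled CPM with LARP7, against 14413 and 15488 CPM with IgG. The IgG libraries were close together and both LARP7 libraries lay above them, with a log2 fold change of 3.26 ± 0.98 by TMM (SE; adjusted p = 0.0362) and 1.77 by totals (adjusted p = 0.0429). Without LARP7 replicate 1 it was 1.98 by TMM (edgeR adjusted p = 0.406), and without LARP7 replicate 2 it was 3.92 (edgeR adjusted p = 0.225). Snord49a had 126251 and 91090 CPM with LARP7, against 9213 and 17317 CPM with IgG. Its log2 fold change was 3.03 ± 0.89 by TMM (SE; adjusted p = 0.0334) and 1.65 by totals, where it missed the threshold (adjusted p = 0.0563). By TMM its call was lost without either LARP7 library. Snord93, with a small part of the counts of Snord2, had the lower SE (0.44, against 0.98 for Snord2).

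At the low end stood Snord60, which is not placed in the gene table used. It had 99.8 and 122 TMM-scaled CPM with LARP7, against 140 and 204 CPM with IgG, so that both LARP7 libraries lay below both IgG libraries. By TMM the log2 fold change was -0.63 ± 0.54 (SE; edgeR adjusted p = 0.401), and by totals it was -2.004 (adjusted p = 0.00313), which passed as lower. Snord34, inside Rpl13a, had 170 and 211 CPM with LARP7, against 84.3 and 336 CPM with IgG. By TMM its IgG libraries lay on both sides of the LARP7 libraries, with -0.14 by TMM (edgeR adjusted p = 0.895) and -1.43 by totals (adjusted p = 0.0374).

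Snord95, inside Rack1, which encodes a ribosomal scaffold protein, had 2192 and 2065 TMM-scaled CPM with LARP7, against 1308 and 2406 CPM with IgG. The groups overlapped by TMM, with 0.20 ± 0.69 by TMM (SE; edgeR adjusted p = 0.852) and -1.17 by totals (adjusted p = 0.136). Snord80 overlapped as well, at 2108 and 4974 CPM with LARP7, against 1028 and 4715 CPM with IgG, with 0.30 ± 0.86 by TMM (SE; edgeR adjusted p = 0.817). Both lay above the median level of the members, so a high level did not go with a high fold for every member.

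Snord55 (79 nt) had 10551 and 4832 TMM-scaled CPM with LARP7, against 2335 and 2097 CPM with IgG. By TMM the LARP7 libraries were above and more than a factor of 2 apart, and 1.80 ± 0.76 by TMM did not pass (SE; edgeR adjusted p = 0.106). Snord50a and Snord50b stood nearly alike at 2.14 ± 0.78 and 2.12 ± 0.76 by TMM (SE), with edgeR adjusted p of 0.0655 and 0.0633, on counts shared with their copies.

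One member, Snord123, is an orphan, with no known rRNA or snRNA target. It had 236 and 435 TMM-scaled CPM with LARP7, against 292 and 664 CPM with IgG, and the groups overlapped by TMM. The log2 fold change was -0.51 ± 0.67 by TMM (SE; edgeR adjusted p = 0.595) and -1.82 by totals (adjusted p = 0.0121), which passed as lower. Snord73a, for which no target is given here, had 0.73 ± 0.50 by TMM (SE; edgeR adjusted p = 0.298) and -0.60 by totals. No guide of U6 snRNA and no guide of 5.8S rRNA was among the 42.

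The members are scattered over host genes. The gene table of RefSeq GRCm38.p6 placed 37 of the 42, on 14 chromosomes with 11 on chromosome 11, and all 37 lay within the interval of another gene, 29 genes in all; strand was not used. Snord50a, Snord50b, Snord60, Snord78 and Snord80 were not placed. RefSeq gave a shorter gene than the model for 29 of the 37, a longer one for 6 and an equal one for 2. Protein-coding hosts held 25 members, of which 11 rose by TMM with a median of 1.80 (5 higher and 1 lower by totals). The other 12 lay in lncRNA hosts, and 6 of them rose by TMM with a median of 1.79 (2 higher and 1 lower by totals). Both counts stand beside 14.5% of all models called higher by TMM, and 3.95% higher and 47.1% lower by totals.

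The hosts are shown by their starts, because snoRNA host genes are known for start sites rich in pyrimidines. Each sequence runs 5′ to 3′ on the gene's strand from 50 bases before the RefSeq start to 20 bases from it, with CTTTC, or GAAAG on the other strand, in capitals where it falls within 20 bases of the start. These 5 hosts carry Snord49a, Snord49b and Snord65 (2410006H16Rik), Snord1a (Snhg16), Snord45c (Rabggtb, the first of its listed starts), Snord57 and Snord110 (Nop56) and Snord2 (Eif4a2).
2410006H16Rik, chr11:62602827-62602896, plus strand: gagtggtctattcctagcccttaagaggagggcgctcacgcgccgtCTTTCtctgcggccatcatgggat
Snhg16, chr11:116671610-116671679, plus strand: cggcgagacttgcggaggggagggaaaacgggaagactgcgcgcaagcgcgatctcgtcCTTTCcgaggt
Rabggtb, chr3:153912947-153913016, minus strand: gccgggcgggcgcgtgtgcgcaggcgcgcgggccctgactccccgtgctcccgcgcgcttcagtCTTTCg
Nop56, chr2:130274362-130274431, plus strand: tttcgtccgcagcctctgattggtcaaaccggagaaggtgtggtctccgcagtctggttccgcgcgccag
Eif4a2, chr16:23107418-23107487, plus strand: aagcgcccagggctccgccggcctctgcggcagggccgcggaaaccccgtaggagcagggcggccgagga
The 24 hosts with a listed start had 27 start windows. The letters CTTTC or GAAAG were found in 8 of these windows (29.63%), and in 3336 of 32851 start windows of all genes (10.15%). In Rps3a1, host of Snord73a, the letters were GAAAG. The letters were chosen after the sequences were seen, so the count is a description with no test. Nop56 and Eif4a2, whose snoRNAs were among the members called higher by TMM, do not hold them in this window.

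Members cut from the same host did not share a level. Inside 2410006H16Rik, Snord49a exceeded Snord65 by a ratio of CPM per nt of 7042 and 2420 with LARP7, against 2407 and 1710 with IgG. Inside Rabggtb, Snord45c exceeded Snord45b by 7667 and 702 with LARP7, against 3892 and 384 with IgG, where Snord45b rested on at most 29.67 counts in a library. Both gaps were wide in both groups, with and without the LARP7 antibody. Inside Nop56, by contrast, Snord57 and Snord110 differed by ratios of 1.34 and 1.05 with LARP7, against 2.61 and 0.988 with IgG.

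Of the hosts with 3 members, Rpl23a and 2410006H16Rik had all 3 rise by TMM, and Snhg16 had 1. By totals the counts were 2 for Rpl23a (Snord4a and Snord42b), 0 for 2410006H16Rik and 1 for Snhg16. Over all models tested 14.5% were called higher by TMM and 3.95% by totals. In Rpl23a, Snord42a had 90.7 and 224 TMM-scaled CPM with LARP7, against 26.4 and 44.5 CPM with IgG, and Snord4a had 19.7 and 56.5 CPM with LARP7, against 3.20 and 7.91 CPM with IgG. Their log2 fold changes by TMM were 2.15 ± 0.60 and 2.81 ± 0.62 (SE; edgeR adjusted p of 0.0284 and 0.0170). Without LARP7 replicate 2 they were 1.36 and 1.86 and neither was called, and without IgG replicate 2 Snord4a was 3.61. Snord42a was not called without IgG replicate 1 either. By TMM the groups lay apart for each, while by totals they overlapped for both. By TMM LARP7 replicate 2 was the higher LARP7 library in all 3 snoRNAs of this host.

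In 2410006H16Rik, Snord49b had 124 and 125 TMM-scaled CPM with LARP7, against 12.0 and 34.8 CPM with IgG, and Snord65 had 17.9 and 37.6 CPM with LARP7, against 3.83 and 10.1 CPM with IgG. Their log2 fold changes by TMM were 2.42 ± 0.59 and 2.02 ± 0.55 (SE; edgeR adjusted p of 0.0185 and 0.0282). Without IgG replicate 2 they were 3.44 and 2.90, without LARP7 replicate 2 Snord65 was 1.39, and both calls were lost without LARP7 replicate 2 or IgG replicate 1. All LARP7 values of both were above all IgG values by TMM, on levels far below that of Snord49a.

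Snhg16 was the host whose members differed most in fold. Snord1b had 47.5 and 144 TMM-scaled CPM with LARP7, against 16.2 and 72.5 CPM with IgG, and Snord1c had 8.83 and 27.8 CPM with LARP7, against 2.89 and 17.6 CPM with IgG. For both the groups overlapped and the log2 fold change did not pass (1.12 ± 0.79 and 0.88 ± 0.94 by TMM, SE; edgeR adjusted p of 0.324 and 0.547). Snord1b exceeded Snord1a by 4.30 and 5.48 in CPM per nt with LARP7, against 41.0 and 28.2 with IgG. The difference between the members' folds was not tested, and Snord1c shares its counts with a copy.

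**Figure D4:**
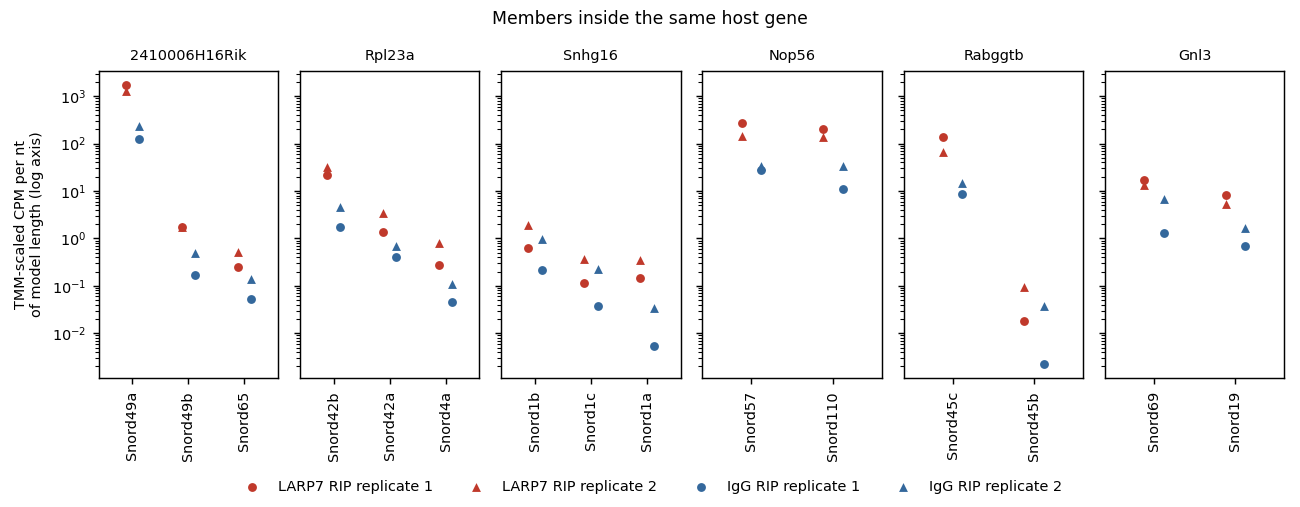
TMM-scaled CPM per nt (log axis) of members that lie inside the same host gene, with 1 panel for each of 6 hosts, 1 point per library, LARP7 RIP in red left of IgG RIP in blue. Snord57 and Snord110 lie at a like height inside Nop56, while the highest and lowest members inside 2410006H16Rik and inside Rabggtb are far apart in all 4 libraries.

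The host genes have models of their own. Of 24 hosts tested, 10 were higher by TMM and 2 lower, where 14.5% of all models tested were higher and 9.69% lower. The median log2 fold change of the hosts was 1.04 by TMM. Eef2, host of Snord37, was among the lower (-1.77 by TMM and -3.25 by totals). The host Eif4a2 of Snord2 was among the higher, with 2170.5 and 1792.5 counts with LARP7, against 474.93 and 372.49 with IgG (3.35 by TMM, edgeR adjusted p = 0.00891; 1.95 by totals). The host Rpl23a, whose 3 snoRNAs all rose by TMM, had 6.34 and 4.09 counts with LARP7, against 36.71 and 16.81 with IgG (-1.17 by TMM, edgeR adjusted p = 0.268; -2.60 by totals). Across 34 pairs the member's fold lay above its host's in 22, and the correlation of the 2 folds was r = -0.08 and rho = -0.14, a description over pairs that share libraries and, in part, hosts. The files do not state how reads in introns were assigned, so how far a host model holds reads of its snoRNAs is not known.

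Length and level did not order the folds. Members ran from 64 to 80 nt with a median of 72 nt. The median log2 fold change by TMM was 1.98 over the 26 members up to 72 nt and 1.75 over the 16 longer ones. Across the 42 members, length and log2 fold change had r = 0.04 and rho = 0.07, and the log level had r = 0.28 and rho = 0.29 with the fold. These are descriptions over members that share libraries and depth.

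Snord models on both sides of the length limit held a range of values. Just inside, at 80 nt, were Snord45c and Snord69, and Snord69 had 1393 and 1070 TMM-scaled CPM with LARP7, against 105 and 534 CPM with IgG. Just outside, at 81 nt, Snord96a had 2899.86 and 5985.78 counts with LARP7, against 7961.38 and 14811.4 with IgG, a log2 fold change of -0.48. Snord72, also at 81 nt, had 1993 and 3156 counts with LARP7, against 1001 and 2292 with IgG, with 1.495. A second model with the symbol Snord80 had 45.67 and 53.26 counts with LARP7, against 0 and 23.28 with IgG, and is apart from the 77 nt member of that name.

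The mRNAs of the box C/D particle ranged widely in count. Nop56 had 1146.91 and 1155.09 counts with LARP7, against 545.77 and 1058.76 with IgG, and Fbl had 28.75 and 8.97 with LARP7, against 96.34 and 13.33 with IgG. Of the 4 core protein mRNAs tested 0 were called in either direction by TMM, with log2 fold changes of -0.04 for fibrillarin (Fbl), 1.42 for Nop56, 0.92 for Nop58 and -0.16 for Snu13. At an unadjusted p under 0.05, 2 of the 10 particle mRNAs tested were higher and 1 lower by TMM. Of all 12234 models tested, 2563 were higher and 2224 lower at that threshold. Of 6 assembly factor mRNAs tested, Znhit3 rose by TMM (1.92 ± 0.51, SE; edgeR adjusted p = 0.0233), with 39.92 and 89.21 counts with LARP7, against 63.51 and 19.26 with IgG. Ruvbl2 fell by TMM (-1.38 ± 0.43, SE; edgeR adjusted p = 0.0410), with 20 and 27 counts with LARP7, against 197 and 90 with IgG. The call of Ruvbl2 was lost with each library left out in turn, and that of Znhit3 without LARP7 replicate 2 or IgG replicate 2. By totals 0 of the 10 were higher and 5 lower, where 3.95% of all models were higher and 47.1% lower. The Larp7 mRNA had 55.79 and 39 counts with LARP7, against 457 and 183 with IgG, and was lower by TMM (-1.46; edgeR adjusted p = 0.0291) and by totals (-2.93; adjusted p = 1.59e-06). By TMM this call was kept without LARP7 replicate 1 and lost with each other library left out. An antibody to a protein need not recover its mRNA, so this mRNA is no check of the labels.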

How the data were processed

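Small RNA RIP-seq of mouse testis gave 2 LARP7 and 2 IgG libraries. Lysis, per the labels' protocols, was in 150 mM NaCl, antibody binding took 4 h and beads were washed in 500 mM NaCl. Per the submitters' processing notes, cutadapt, Bowtie2, RSEM and mm10 were used; the sources used here do not give their versions. The authors deposited, per gene model, an RSEM expected count, which need not be whole, and a TPM, which divides counts by effective length. In a library 13.4% to 18.9% of models, and 19 members, were not whole (over 0.001 from a whole number).

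Expected counts were rounded and tested with edgeR 4.0.16 in R 4.3.3 (filterByExpr, TMM, robust quasi-likelihood F test, two-sided, Benjamini-Hochberg over 12234 models), with antibody as the only term. SE is the absolute log2 fold change, computed without the small prior count that edgeR adds, over the square root of F. The printed fold changes include that prior count. The script was run on simulated counts with set folds, which checks the code only. Those counts did not carry the difference in TMM factors or the spread between these libraries. Alternatives were library totals, DESeq2 1.42.0, no low-count filter, replicate number as a term, each library left out, and limma 3.58.1 on log2(TPM + 1) of the authors' TPM. Shares are sums of expected counts over the library total. Depth was 4411271 to 6994514 counts per library.

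Members, lists and tests were chosen with earlier results of these data known. Named members were the 12 highest by mean CPM per nt, the 8 highest and 8 lowest by fold with at least 30 counts, those of hosts with 3 members and those at the length limit; exceptions are said where named. Host intervals came from the RefSeq GRCm38.p6 gene table, without strand, and start sequences from RefSeq of the same build. Guide targets are those of human snoRNAs. The sequences of the snoRNAs themselves were not used here. Some host genes are not reported here.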

Additional observations from a re-analysis of the deposited data

How the results depend on the processing

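Of the 17 members called higher, library totals kept 7 (and called 3 lower), limma on TPM 0, with 0 higher and 3 lower at an unadjusted p under 0.05, and DESeq2, no low-count filter and the replicate block all 17, among 24, 20 and 24 calls. Leaving out 1 library gave 2 to 30 calls. Over all models totals gave 483 higher and 5759 lower, DESeq2 622 lower, limma 0 and 0 (159 and 5032 unadjusted), and leaving out a library 660 to 2138 higher and 197 to 922 lower. For 18S guides totals gave 4, limma 0 and leaving out a library 2 to 15. For 28S guides totals gave 3 higher and 2 lower, DESeq2 11, the block 12, limma 0 and leaving out a library 0 to 14. For the 9 members of hosts with 3 members totals gave 3, limma 0 and leaving out a library 0 to 9. For particle mRNAs totals gave 0 higher and 5 lower, DESeq2 0 lower, limma 0 and 0, and leaving out a library 0 to 1 higher and 0 lower. The members' median was 0.42 by totals, 1.94 with the block, -0.42 by limma on TPM and 1.33 to 2.77 with a library left out. The share by TPM was 44.2% with LARP7 and 36.7% with IgG.

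The labels state no pairing by replicate number. Deviations of same-numbered libraries had r = 0.21 over 12234 models, against -0.21 for libraries of other number. With 2 libraries in each group these values mirror each other, so whether the libraries are paired cannot be read from them. Under the replicate block 3 named genes changed sign (Snord61 -0.013, Snord34 0.17, Fbl 0.0066).

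By totals 10 named genes changed sign: Snord95 -1.17, Snord73a -0.60, Snord61 -1.26, Snord1c -0.36, Snord38a -0.83, Snord1b -0.12, Snord80 -0.94, Rpap3 -0.97, Nop58 -0.47 and Ruvbl1 -0.96. By limma on TPM 21 values did: Snord42a -0.34, Snord59a -0.26, Snord95 -2.15, Snord82 -0.50, Snord73a -1.66, Snord61 -2.31, Snord1c -1.28, Snord38a -1.75, Snord69 -0.16, Snord66 -0.11, Snord65 -0.37, Snord1b -1.20, Snord55 -0.83, Snord50b -0.18, Snord50a -0.15, Snord80 -1.95, Znhit3 -0.23, Rpap3 -0.10, Nop58 -1.07, Nop56 -0.61 and Ruvbl1 -0.32. With 1 library left out 11 did, over these ranges: Snord95 -0.17 to 0.76, Snord61 -0.67 to 0.58, Snord1c -0.18 to 2.70, Snord38a -0.17 to 1.63, Snord34 -0.82 to 1.23, Snord123 -1.02 to 0.25, Snord80 -0.45 to 1.83, Ruvbl1 -0.28 to 0.82, Fbl -1.25 to 1.21, Snu13 -0.62 to 0.48 and Znhit6 -0.72 to 0.41. The cause of these changes was not tested.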
